A study of Mus musculus with 9 samples.

Results

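The respiratory chain of lung mitochondria is built from proteins of 2 genomes, and both sets of transcripts were followed here in lung after irradiation of the brain. The genes were taken by symbol: those starting with mt-, which are transcribed from the mitochondrial genome, and those starting with Ndufa, Ndufb, Ndufs, Ndufv, Sdh, Uqcr, Cox4, Cox5, Cox6, Cox7, Cox8 or Atp5, which are nuclear. Of 22564 genes in the table, 106 had such a symbol and 103 had a mean of at least 0.5 FPKM (fragments scaled to transcript length and library size) over the 9 libraries. These 103 comprised 13 mitochondrially encoded and 90 nuclear encoded genes. The mitochondrial genes were 7 subunits of complex I, 1 of complex III, 3 of complex IV and 2 of complex V. The nuclear genes were 34 subunits of complex I, 4 of complex II, 8 of complex III, 17 of complex IV, 15 of complex V and 12 assembly factors or related genes. Outside the threshold lay Cox7b2 at a mean of 0.179 FPKM, Cox8c at 0.0991 and Atp5l-ps1 at 0; just inside it were the assembly factors Ndufaf2 at 1.80 and Ndufaf5 at 2.70.

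All libraries came from lung of mice of the strain GFP-LC3, which express LC3, a protein of autophagosomes, tagged with GFP. One group had received X-rays to the whole brain once, at 10 Gy and 2 Gy per min, a second the same exposure 3 times at weekly intervals, and the third sham irradiation, with 3 libraries in each. The labels state no interval between exposure and collection, no sex and no age, and no schedule for the sham animals, so time on study and exposure cannot be told apart. The labels do not say that each library was made from a separate animal, and p-values therefore measure the spread between libraries, which may be technical.

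Complexes I to IV carry electrons from NADH and succinate to oxygen, and all of them except complex II pump protons across the inner membrane; complex V, the ATP synthase, uses the gradient to make ATP. Complex II is made wholly of nuclear encoded proteins. The mitochondrial genome is transcribed from both strands as long polycistronic RNAs that are cut into single transcripts, and nearly all its protein genes lie on the heavy-strand transcript, with mt-Nd6 alone on the other. Nuclear respiratory chain genes are regulated in part through the factors NRF1 and GABP and the coactivator PGC-1α. Complex IV has tissue forms: Cox6a2, Cox7a1 and Cox8b are used in heart and skeletal muscle, and Cox6a1, Cox7a2 and Cox8a nearly everywhere else. Cox4i2 is a form of subunit IV expressed in lung and linked to oxygen sensing.

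Some neighbouring mitochondrial genes share bases. Whether this bears on their estimated levels was not tested. The open frames of mt-Atp8 and mt-Atp6 overlap by 43 bases at chrM:7927-7969, and those of mt-Nd4l and mt-Nd4 by 7 bases at chrM:10167-10173, all on the plus strand of GRCm38 in the GENCODE M21 transcripts. The overlaps are in capitals, within 20 bases on each side.
mt-Atp8 and mt-Atp6, chrM:7907-7989: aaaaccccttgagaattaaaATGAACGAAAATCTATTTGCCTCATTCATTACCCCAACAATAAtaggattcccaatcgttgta
mt-Nd4l and mt-Nd4, chrM:10147-10193: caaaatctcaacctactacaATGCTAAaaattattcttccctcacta

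Of the 90 nuclear genes, 75 matched a promoter in the RefSeq table of GRCm38.p6, which gives 250 bases before to 50 after the start. The NRF1 element, the 10 bases in capitals in the windows shown, is a palindrome that reads the same on both strands. It stood in 7 of the 75 (9.33%), against 290 of all 27025 genes in that table (1.07%). A gene counted if any of its listed promoters held the letters. The ETS core CCGGAAG, the type bound by GABP, stood on either strand in 19 of the 75 (25.3%), against 2683 of all genes (9.93%). A match describes letters only. The element lay within the 100 bases before the start in Atp5g2, Atp5k and Ndufa11. Atp5g2 is a copy of the ring subunit c, Atp5k is subunit e of the ATP synthase and Ndufa11 is a membrane-arm subunit of complex I. Their windows are shown because of that position. Atp5g2 and Atp5k had negative log2 fold changes for the single exposure over sham (-0.61 and -0.90). Of the other genes with the element, Cox6a1 was also negative (-0.34). Uqcrc1 (0.93), Ndufaf5 (0.26), Ndufa11 (0.17) and Ndufaf4 (0.02) were positive. A link between the element and these values was not tested. In each window the capitals mark that element.
Atp5g2, chr15:102671048-102671147, minus strand: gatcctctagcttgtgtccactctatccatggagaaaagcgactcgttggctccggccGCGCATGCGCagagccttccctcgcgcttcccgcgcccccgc
Atp5k, chr5:108434400-108434499, minus strand: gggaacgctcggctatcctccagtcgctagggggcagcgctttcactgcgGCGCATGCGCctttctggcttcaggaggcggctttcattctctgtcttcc
Ndufa11, chr17:56717662-56717761, plus strand: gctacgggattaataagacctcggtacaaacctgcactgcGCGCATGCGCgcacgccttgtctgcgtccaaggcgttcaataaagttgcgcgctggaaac

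Libraries held 4987828 to 7381008 fragments of protein-coding genes. Levels are given as CPM, fragments relative to the library total after TMM scaling, and differences as log2 fold changes with their standard errors from edgeR's quasi-likelihood test; a call needed an adjusted p under 0.05 over all 14074 genes tested. Lung markers were present in every library: the summed level of 8 alveolar type 2 markers lay between 6327 and 20604 CPM and that of 5 endothelial markers between 495 and 2434 CPM, with both lowest in library 1 of the single-exposure group. That library also stood apart in heart muscle markers. The 15 markers summed to 12863, 98.3 and 555 CPM in libraries 1, 2 and 3 of the single-exposure group, to 147, 125 and 349 CPM after 3 weekly exposures, and to 609, 743 and 459 CPM in sham lungs. In library 1, 14 of the 15 were at their highest of the 9 libraries, with 5176 CPM for the cardiac myosin Myh6, 335 CPM for the atrial light chain Myl7 and 0.152 CPM for the ventricular light chain Myl2, the exception. Smooth muscle markers summed to 3288 CPM there and to 316 to 709 CPM elsewhere, and 8 adipocyte markers to 1014 CPM, against 1087 CPM in library 3 after 3 weekly exposures and 14.1 to 113 CPM in the other 7. The 4 brown adipocyte markers summed to 106 CPM in library 1 of the single-exposure group and to 12 to 26 CPM elsewhere. Most of each sum was Ppargc1a, the gene of PGC-1α, with 77.7 CPM in that library and 11.6 to 23.2 CPM elsewhere. Ucp1, the uncoupling protein of brown fat, had 114 fragments in that library and 0 or 1 in every other, and Elovl3 had 0 in all. Brown fat is also known to be rich in mitochondria. Skeletal muscle markers summed to 0.818 to 116 CPM in the irradiated and the other sham libraries, and to 2697 CPM in sham library 1. Heart muscle is known to be rich in mitochondria, and the counts and main fold changes of comparisons with the single-exposure group are also given without library 1 of that group. The part of these markers in any difference was not tested. In bulk lung RNA, fewer cells of a type and less RNA per cell cannot be told apart.

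The mitochondrially encoded genes were far more abundant than the nuclear ones. Per length, their mean levels ran from 189 FPKM for mt-Atp6 to 5909 FPKM for mt-Nd4l, with a median of 1858 FPKM; nuclear members ran from 1.80 FPKM for Ndufaf2 to 344 FPKM for Atp5b, the catalytic β subunit of ATP synthase, with a median of 32.6 FPKM. The most abundant nuclear subunit of each other complex was Ndufa3 (114 FPKM) in complex I, Sdha (75.5 FPKM) in complex II, Uqcr10 (94.5 FPKM) in complex III and Cox6c (308 FPKM) in complex IV.

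The 13 mitochondrial genes took 7.16, 1.74 and 1.73% of all fragments in libraries 1, 2 and 3 of the single-exposure group and 5.82, 1.84 and 2.13% after 3 weekly exposures, against 2.84, 3.10 and 2.31% in sham lungs. Both irradiated groups thus split in the same way: library 1 lay above every sham library, and the other 4 irradiated libraries lay below every sham library. Over the 7 genes without a failed estimate, described further on, the shares were 5.15, 1.43 and 1.27% in the single-exposure group and 4.33, 1.44 and 2.11% after 3 weekly exposures, against 2.73, 2.37 and 1.79% in sham lungs, so that 3 irradiated libraries lay below every sham library and library 3 after 3 weekly exposures lay within their range. In that last library mt-Co1, 1 of the 7, took 60.1% of mitochondrial fragments, against 20.6 to 44.0% elsewhere. There 4 of the 7 genes were below every sham library. Over all 13 genes the means were 3.54 ± 3.13% after a single exposure, 3.26 ± 2.22% after 3 weekly exposures and 2.75 ± 0.403% in sham lungs (SD, n = 3 each), so the group means differed by less than the spread within either irradiated group.

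The 90 nuclear genes took 0.751, 0.274 and 0.291% of fragments after a single exposure and 0.282, 0.304 and 0.356% after 3 weekly exposures, against 0.362, 0.334 and 0.307% in sham lungs. Library 1 of the single-exposure group, the one rich in heart markers, was again the highest, while library 1 of the 3-exposure group, which was high for the mitochondrial genes, was among the lowest for the nuclear ones. Both libraries therefore held much mitochondrial RNA, but only 1 of them held much nuclear respiratory chain RNA.

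**Figure D1:**
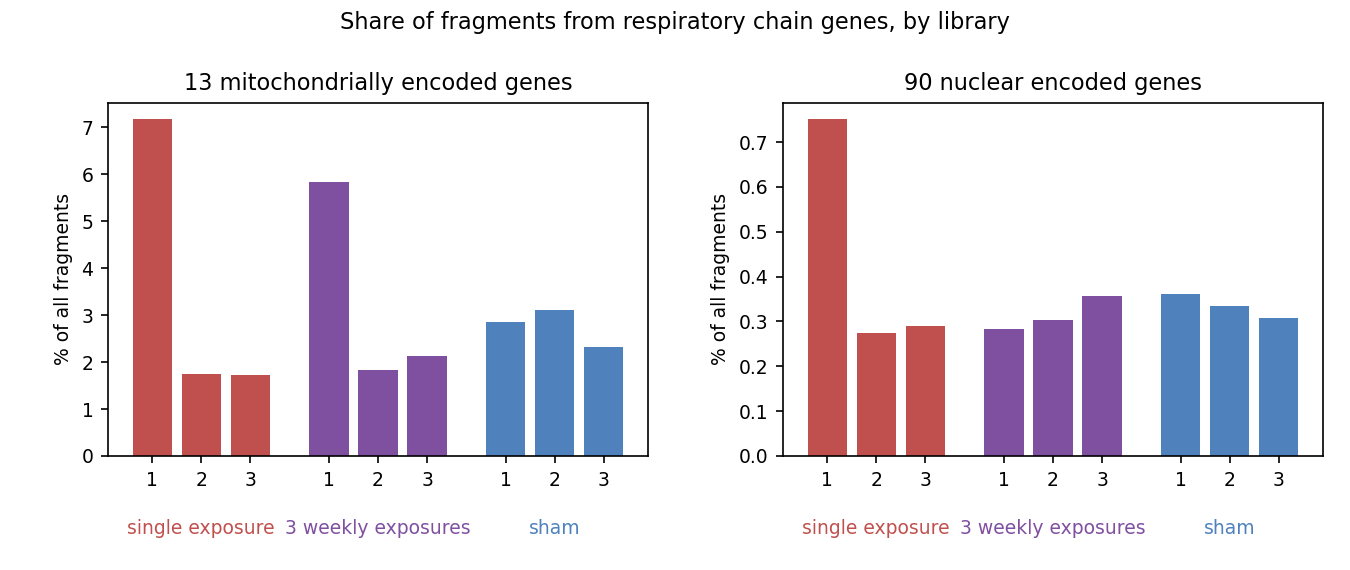
Share of all fragments in each library (y axes, %, each starting at 0) taken by the 13 mitochondrially encoded genes (left) and the 90 nuclear encoded genes (right), 1 bar per library, grouped by exposure. Library 1 of both irradiated groups is high on the left (7.16 and 5.82%), and on the right only library 1 of the single-exposure group is (0.751%).

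The balance of the 2 genomes within a library does not depend on scaling between libraries. Mitochondrial fragments per nuclear fragment numbered 9.54, 6.34 and 5.96 in the single-exposure group and 20.6, 6.04 and 5.99 after 3 weekly exposures, against 7.85, 9.28 and 7.52 in sham lungs. The other 4 irradiated libraries were below every sham library and the 2 libraries numbered 1 were above them. On the log2 scale the ratio averaged 2.83 ± 0.37 after a single exposure, 3.18 ± 1.03 after 3 weekly exposures and 3.03 ± 0.16 in sham lungs (SD, n = 3 each), differences of -0.20 and 0.15 from sham that lay within the spread of the irradiated groups. Some mitochondrial genes had failed estimates, described next, and the ratio was therefore also taken over the 7 genes without one. It was then 6.87, 5.23 and 4.38 in the single-exposure group and 15.4, 4.74 and 5.93 after 3 weekly exposures, against 7.53, 7.09 and 5.82 in sham lungs, so that 1 irradiated library exceeded every sham library and 3 lay below them all. The value of 5.93 rests largely on mt-Co1, which took 60.1% of mitochondrial fragments in that library.

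Gene by gene, the deposited values of 6 mitochondrial genes broke down in single libraries. The catalytic core subunits of complex IV, mt-Co2 and mt-Co3, lay more than 10 times below their medians in library 3 after 3 weekly exposures (129 and 219 fragments) and in sham library 1 (458 and 711 fragments), while their medians over the 9 libraries were 7647 and 15974 fragments. In the same 3-exposure library the complex I core subunits mt-Nd3 and mt-Nd4l had 8 and 62 fragments, against medians of 1925 and 3418. The ATP synthase subunits mt-Atp6 and mt-Atp8 had 0 fragments after rounding in 3 and 4 libraries, and the authors' deposited count of mt-Atp8 was as low as 6.4e-93 there. These 6 genes and mt-Nd4 lie next to each other between mt-Co1 and mt-Nd5, and mt-Atp8, mt-Atp6, mt-Co3, mt-Nd3, mt-Nd4l and mt-Nd4 were deposited under 1 shared locus, so that the split of fragments between them is uncertain; the cause of the low values was not tested. Library 3 after 3 weekly exposures and sham library 1 also gave the highest shares of mitochondrial fragments to mt-Co1 (60.1 and 44.0%, against 20.6 to 41.1% in the other 7). No fold change is given for mt-Atp6 and mt-Atp8, and those of mt-Co2, mt-Co3, mt-Nd3 and mt-Nd4l rest on these values.

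**Figure D2:**
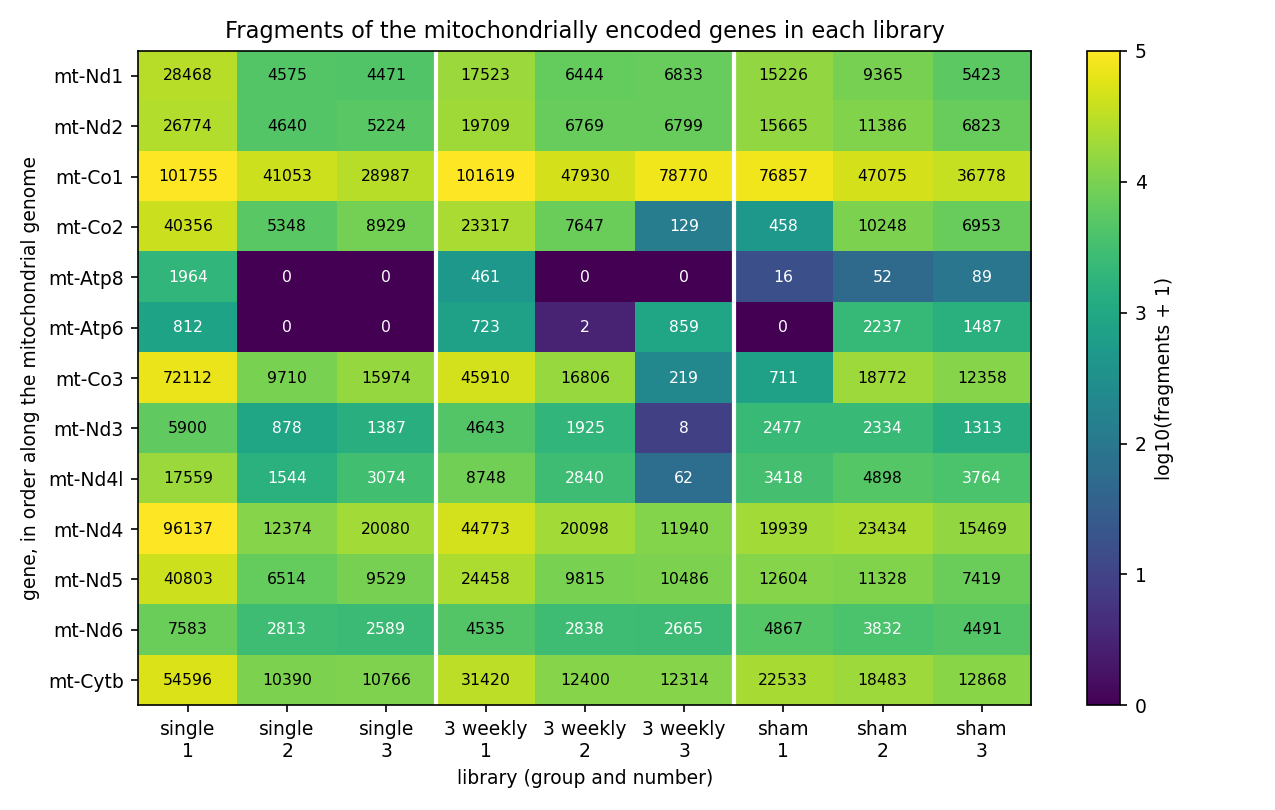
Fragments of the 13 mitochondrially encoded genes (rows, in order along the mitochondrial genome) in each library (columns), with the number printed and the colour giving log10(fragments + 1). Isolated dark cells, such as mt-Co2 with 129 fragments in library 3 after 3 weekly exposures, are the low estimates; mt-Nd1, mt-Nd2, mt-Co1, mt-Nd4, mt-Nd5, mt-Nd6 and mt-Cytb have no such cell.

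The 7 genes without such a breakdown lay mostly, but not wholly, on the same side of sham in each library. All 7 were above every sham library in library 1 of the single-exposure group, and 6 of 7 in library 1 after 3 weekly exposures. All 7 were below every sham library in library 2 of both irradiated groups. In library 3, 5 of 7 were below every sham library after a single exposure, and 4 of 7 were below and 1 above after 3 weekly exposures. That 1 was mt-Co1, the catalytic subunit of complex IV, with 15437, 7067 and 4626 CPM after a single exposure and 17733, 6531 and 12907 CPM after 3 weekly exposures, against 12308, 8872 and 7238 CPM in sham lungs. mt-Cytb, the one mitochondrial subunit of complex III, had 8283, 1789 and 1718 CPM after a single exposure and 5483, 1690 and 2018 CPM after 3 weekly exposures, against 3608, 3484 and 2532 CPM in sham lungs. mt-Nd1, a membrane-arm subunit of complex I at the ubiquinone site, had 4319, 788 and 714 CPM after a single exposure and 3058, 878 and 1120 CPM after 3 weekly exposures, against 2438, 1765 and 1067 CPM in sham lungs. In both genes library 1 of each irradiated group lay above all sham libraries, and the other irradiated libraries lay below them, except library 3 after 3 weekly exposures for mt-Nd1, which lay within their range. Taken over the 7 genes as a median log2 deviation from the sham mean, the libraries stood at 1.38, -0.72 and -0.94 after a single exposure and at 0.88, -0.91 and -0.65 after 3 weekly exposures, against 0.19, 0.14 and -0.34 in sham lungs.

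The heavy-strand gene mt-Nd5 and the light-strand gene mt-Nd6 overlap at their ends on opposite strands and encode subunits of complex I. Fragments of mt-Nd6 per fragment of mt-Nd5 numbered 0.186, 0.432 and 0.272 in the single-exposure group and 0.185, 0.289 and 0.254 after 3 weekly exposures, against 0.386, 0.338 and 0.605 in sham lungs. In 5 of the 6 irradiated libraries the ratio was below every sham library, with the lowest values in the libraries numbered 1. The library kit marks strand, but how the counting used it is not given in the sources used here, and mt-Nd5, mt-Nd6 and mt-Cytb were deposited under 1 shared locus. mt-Nd6 itself had 1150, 484 and 413 CPM after a single exposure and 791, 387 and 437 CPM after 3 weekly exposures, against 779, 722 and 884 CPM in sham lungs.

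Whether 1 exposure changed these genes was asked by setting the single-exposure libraries against sham. No member was called by edgeR (0 of 13 mitochondrial and 0 of 89 nuclear genes tested, with 0% called over all genes). At an unadjusted p under 0.05, 4 nuclear genes were higher and 1 was lower, against 6.6% higher and 5.43% lower of all genes, and no mitochondrial gene was either. DESeq2 and limma also called 0 members, with 9 and 7 of 103 at that unadjusted p (10.1% and 11.4% of all genes); over all genes they called 156 and 5. The fitted log2 fold change was above 0 in 9 of 13 mitochondrial and 67 of 89 nuclear genes (53.8% of all genes), with medians of 0.29 and 0.27, against 0.03 over all genes. The 13 mitochondrial genes, here and in the later counts and medians, include the 6 with failed estimates. The other 7 were divided. Above 0 were mt-Nd4 (0.90), mt-Nd5 (0.65), mt-Cytb (0.29) and mt-Nd1 (0.14). Below 0 were mt-Co1 (-0.07), mt-Nd2 (-0.07) and mt-Nd6 (-0.22). The groups did not overlap in 2 nuclear genes, 1 higher (10.2% of all genes) and 1 lower (10.7% of all genes).

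The direction rested on library 1. It was the highest of the 9 libraries in 74 of the 90 nuclear genes, and relative to the median of the other 8 its level was 2.06-fold at the median over the 90. The excess reached every complex: the medians of this ratio were 1.89 in complex I, 2.29 in complex II, 2.60 in complex III, 2.29 in complex IV and 2.38 in complex V, against 1.45 in the 12 assembly factors and related genes. Among them Sdhc, a membrane anchor of complex II, had 77.5, 30.1 and 44.8 CPM after a single exposure, against 30.7, 32.8 and 23.2 CPM in sham lungs (log2 fold change 0.81 ± 0.31, unadjusted p = 0.0268, adjusted p = 0.371, edgeR). Ndufa10, a matrix-facing subunit of complex I, had 118, 33.9 and 43.1 CPM after a single exposure, against 35.2, 32.0 and 25.8 CPM in sham lungs (1.07 ± 0.44, adjusted p = 0.391, edgeR). Uqcrc1, a core protein of complex III, had 170, 49.6 and 68.6 CPM after a single exposure, against 54.4, 51.5 and 45.9 CPM in sham lungs (0.93 ± 0.41, adjusted p = 0.412, edgeR). In all 3 genes library 1 was far above the rest, library 3 lay above the sham libraries and library 2 did not exceed them all, and without library 1 the log2 fold changes were 0.37 ± 0.22 for Sdhc, 0.31 ± 0.25 for Ndufa10 and 0.22 ± 0.24 for Uqcrc1. Atp5b had 1305, 311 and 347 CPM after a single exposure, against 362, 354 and 295 CPM in sham lungs, and without library 1 its log2 fold change was -0.033 ± 0.22.

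The succinate dehydrogenase genes, whose products have no mitochondrially encoded partner, showed the same pattern. Sdha, the flavoprotein that oxidises succinate, had 367, 167 and 167 CPM after a single exposure and 149, 178 and 212 CPM after 3 weekly exposures, against 195, 182 and 168 CPM in sham lungs. Sdhb, the iron-sulphur subunit, had 130, 37.2 and 46.8 CPM after a single exposure and 33.5, 45.1 and 51.6 CPM after 3 weekly exposures, against 59.1, 49.2 and 49.6 CPM in sham lungs. Sdhd, the other membrane anchor, had 79.2, 40.5 and 37.7 CPM after a single exposure and 45.9, 38.0 and 40.3 CPM after 3 weekly exposures, against 45.0, 41.8 and 42.7 CPM in sham lungs. Apart from library 1 of the single-exposure group, Sdha lay between 149 and 212 CPM and Sdhd between 37.7 and 45.9 CPM. Sdhb lay between 33.5 and 59.1 CPM in the same libraries. Its irradiated values there were below every sham library, except in library 3 after 3 weekly exposures.

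The paired forms of complex IV subunits differed widely between libraries. Cox6a2, the heart and skeletal muscle form (chr7:128205435-128206387), had 255, 2.24 and 12.3 CPM after a single exposure and 3.66, 3.54 and 8.85 CPM after 3 weekly exposures, against 13.6, 13 and 6.30 CPM in sham lungs. Its partner Cox6a1, the form of most tissues, had 46.9, 12.9 and 36.2 CPM after a single exposure and 40.7, 41.3 and 60.5 CPM after 3 weekly exposures, against 39.4, 46.9 and 35.4 CPM in sham lungs. The muscle form exceeded the common form only in library 1 of the single-exposure group, with 5.44 fragments per fragment of Cox6a1, against 0.0858 to 0.346 in the other 8 libraries. Cox7a1, the muscle form of subunit VIIa, had 42.8, 1.21 and 1.44 CPM after a single exposure and 0.349, 1.5 and 0.983 CPM after 3 weekly exposures, against 6.25, 3.77 and 0.394 CPM in sham lungs. Its partner Cox7a2 had 66.1, 26.9 and 25.7 CPM after a single exposure and 24.95, 31.9 and 30.8 CPM after 3 weekly exposures, against 36.4, 38.4 and 25 CPM in sham lungs. Cox8b, the muscle form of subunit VIII, had 17.4, 0 and 0.958 CPM after a single exposure and 0, 0.818 and 3.77 CPM after 3 weekly exposures, against 7.37, 2.26 and 2.16 CPM in sham lungs, while Cox8a lay between 61.1 and 144 CPM. All 3 muscle forms were highest in the library with the most heart marker RNA, which was also highest in smooth muscle markers and in Ucp1. Their next highest values were in sham library 1 (13.6, 6.25 and 7.37 CPM), where skeletal muscle markers summed to 2697 CPM. For Cox6a2, sham library 2 was close to it (13 CPM). The source of these forms was not tested.

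**Figure D3:**
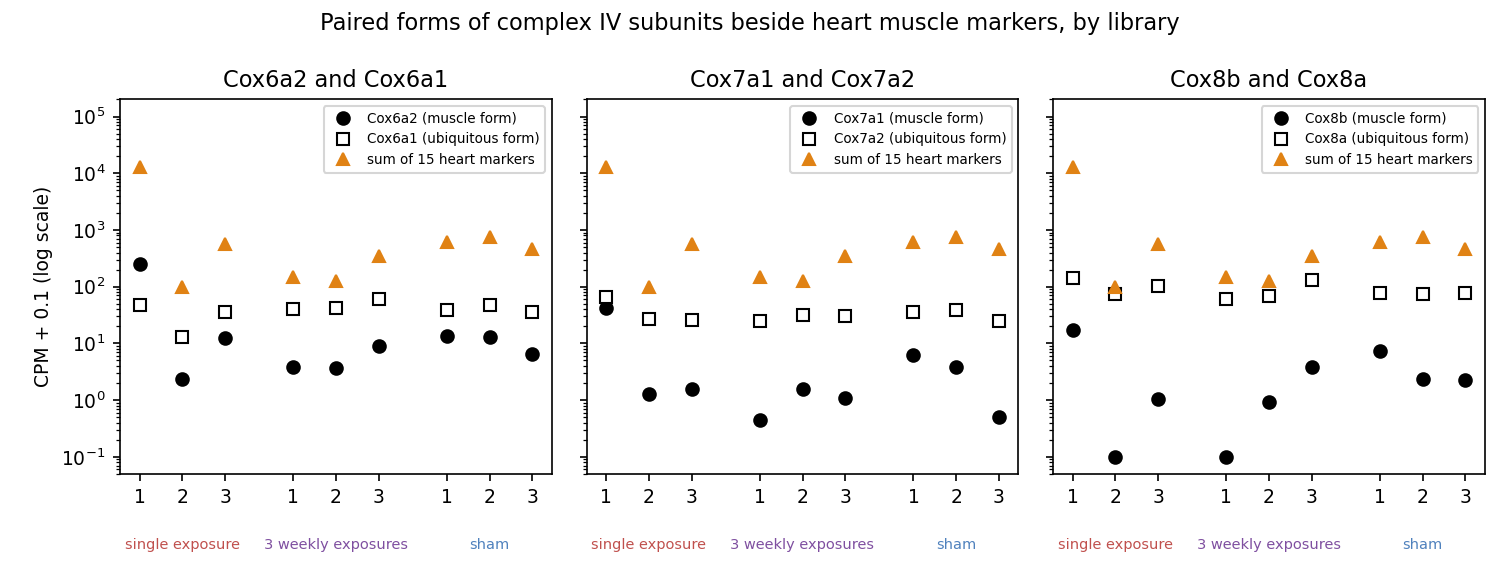
CPM + 0.1 (log scale) in each library for 3 muscle forms (filled circles) and their ubiquitous partners (open squares), with the sum of 15 heart muscle markers (triangles). In library 1 of the single-exposure group Cox6a2 reaches 255 CPM and the heart sum 12863 CPM, and the ubiquitous forms vary far less.

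Other paired forms divided differently. Cox4i2 had 1.37, 6.89 and 8.62 CPM after a single exposure and 10.1, 11.4 and 9.67 CPM after 3 weekly exposures, against 8.17, 7.35 and 11.4 CPM in sham lungs, and was lowest in the library where 74 of the 90 nuclear genes were highest. Its common partner Cox4i1 had 163, 55.6 and 83.6 CPM after a single exposure and 92.3, 89.2 and 99.8 CPM after 3 weekly exposures, against 95.9, 82.4 and 92.5 CPM in sham lungs. The 3 genes that encode the same mature subunit c of the ATP synthase ring also separated. Atp5g1 had 173, 14.98 and 26.5 CPM after a single exposure, against 26.3, 19.98 and 24.4 CPM in sham lungs; Atp5g2 had 9.71, 6.03 and 4.79 CPM, against 10.9, 9.05 and 11.4 CPM; and Atp5g3 had 53.2, 25.8 and 24.4 CPM, against 35.2, 32.8 and 30.7 CPM. Atp5g2 was the one of the 3 in which library 1 did not exceed the sham libraries (log2 fold change -0.61 ± 0.31, unadjusted p = 0.0805, adjusted p = 0.467, edgeR). Cox6b1 lay between 36.3 and 117 CPM, and Cox6b2, known as a testis form, between 3.54 and 8.85 CPM, with overlapping groups. Cox7a2l, which takes part in joining complexes III and IV, lay between 65.1 and 104 CPM.

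Among the nuclear subunits with a log2 fold change below 0 after a single exposure, Atp5e had the smallest p. Atp5e (chr2:174461072-174464105), the ε subunit of the ATP synthase central stalk, had 20.8, 11.7 and 10.2 CPM after a single exposure and 21.5, 18.4 and 19 CPM after 3 weekly exposures, against 25.6, 27 and 21.6 CPM in sham lungs. All 6 irradiated libraries were below all 3 sham libraries. Its log2 fold change for the single exposure was -0.80 ± 0.27 (unadjusted p = 0.0148, adjusted p = 0.332, edgeR), and it was the 1 member that lay wholly below sham. Ndufa2, a small peripheral-arm subunit of complex I, had 9.56, 3.44 and 4.63 CPM after a single exposure and 8.38, 7.77 and 11 CPM after 3 weekly exposures, against 10.9, 11.5 and 9.05 CPM in sham lungs (single exposure over sham -0.83 ± 0.38, adjusted p = 0.424, edgeR). Ndufb2, a membrane-arm subunit, had 21.4, 15.8 and 13.1 CPM after a single exposure, against 20.8, 21.3 and 19.7 CPM in sham lungs, so that library 1 was the highest of all and libraries 2 and 3 lay below sham. Atp5h, subunit d of the peripheral stalk, was the 1 member lying wholly above sham, with 103, 45.3 and 45.2 CPM after a single exposure, against 44.2, 42.2 and 42.1 CPM in sham lungs.

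Without library 1 the picture of the single exposure turned round. With the 2 remaining single-exposure libraries, 74 of 89 nuclear genes (50% of all genes) and 11 of 13 mitochondrial genes had a log2 fold change below 0, with medians of -0.30 and -0.87. The 13 include mt-Atp6 and mt-Atp8, which had 0 fragments in those libraries. At an unadjusted p under 0.05, 19 nuclear genes and 4 mitochondrial genes were lower and none was higher, against 6.78% lower and 6.75% higher of all genes, and still no member was called. The lowest p belonged to Atp5e (-1.17 ± 0.20, adjusted p = 0.133, edgeR), followed by 2 matrix-side subunits of complex IV, Cox5b (-1.13 ± 0.22, adjusted p = 0.133) and Cox5a (-1.10 ± 0.23, adjusted p = 0.143). Ndufa2 (-1.37 ± 0.31, adjusted p = 0.167) and the complex I subunits Ndufa6 and Ndufb10 came next. Over all alternatives run, the adjusted p of the 4 named genes ranged from 0.133 to 0.850 for Atp5e, 0.133 to 0.997 for Cox5b, 0.143 to 0.909 for Cox5a and 0.167 to 0.850 for Ndufa2. Cox5a had 36.0, 12.6 and 14.5 CPM after a single exposure and 19.4, 20.6 and 16.7 CPM after 3 weekly exposures, against 35.1, 29.0 and 23.2 CPM in sham lungs. Cox5b had 31.4, 8.44 and 11 CPM after a single exposure and 12.2, 13.4 and 12.6 CPM after 3 weekly exposures, against 22.6, 21.3 and 19.9 CPM in sham lungs. In both genes, 5 of the 6 irradiated libraries were below all sham libraries, and the exception was the heart-rich library. Cox5a, Ndufa6 and Ndufb10 were singled out after their values were seen. The shift without library 1 was not particular to the members. Of 86 cytosolic ribosomal protein genes, 75 were then below 0, with a median of -0.31. Of these 86, 37 had an unadjusted p under 0.05 in either direction (edgeR, 13.5% of all genes).

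**Figure D4:**
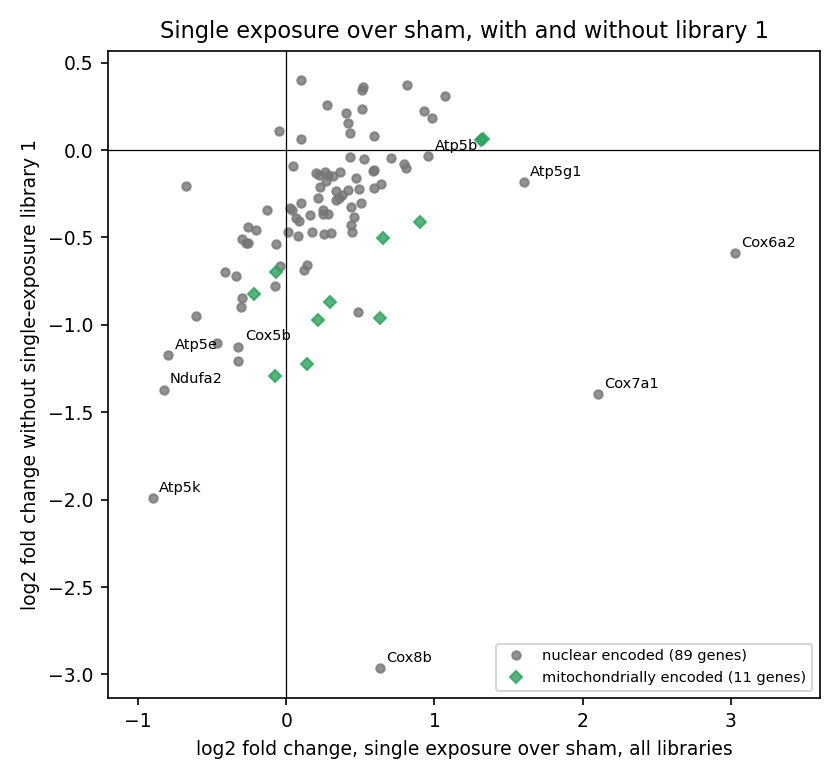
Log2 fold change of each member, single exposure over sham, from all libraries (x axis) and without library 1 of the single-exposure group (y axis); circles are 89 nuclear genes and diamonds 11 mitochondrial genes, leaving out mt-Atp6 and mt-Atp8, which had 0 fragments in the other 2 single-exposure libraries. Most points lie right of 0 but below 0, with medians of 0.27 and -0.30 for nuclear genes; Cox6a2 (3.03 and -0.59), Cox8b (0.63 and -2.97) and Cox7a1 (2.11 and -1.39) move furthest among the nuclear genes.

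After 3 weekly exposures, the question was whether repetition changed the same genes, again against sham. No member was called by edgeR (0 of 102, with 0% called over all genes); 1 nuclear gene was higher and 1 lower at an unadjusted p under 0.05, against 4.26% and 3.64% of all genes. DESeq2 and limma called 0 members too, each with 2 of 103 at that p (6.68% and 7.3% of all genes), and over all genes 73 and 0. The fitted log2 fold change was below 0 in 60 of 89 nuclear genes (47.6% of all genes) with a median of -0.16, and in 7 of 13 mitochondrial genes with a median of -0.03, against 0.02 over all genes. Groups did not overlap in 13 nuclear genes that were lower, 14.6% of the 89 (11.1% of all genes), and in 2 that were higher, 2.25% of the 89 (10.8% of all genes).

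The gene with the smallest p was Ndufa4l2 (chr10:127514967-127517154), a relative of the complex IV subunit Ndufa4 that is known as a target of hypoxia-inducible factor. It had 5.61, 8.61 and 17.1 CPM after a single exposure and 15.5, 20.03 and 21 CPM after 3 weekly exposures, against 9.29, 11.7 and 8.27 CPM in sham lungs. All 3 libraries after 3 weekly exposures lay above all 3 sham libraries (log2 fold change 0.95 ± 0.37, unadjusted p = 0.0307, adjusted p = 0.594, edgeR). Ndufa4 itself had 19, 21 and 16.2 CPM after 3 weekly exposures, against 27.2, 20.7 and 18.1 CPM in sham lungs, which overlapped. Ndufb6, a membrane-arm subunit of complex I, had 6.81, 7.90 and 10.2 CPM after 3 weekly exposures, against 6.57, 6.41 and 6.10 CPM in sham lungs (0.38 ± 0.26, adjusted p = 0.772, edgeR). Atp5s and Cox7c, the other genes with the smallest p on this side, had log2 fold changes of 0.38 ± 0.39 and 0.42 ± 0.46 with overlapping groups.

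On the lower side stood Ndufb7, a complex I subunit of the intermembrane space. It had 19.1, 9.47 and 14.7 CPM after a single exposure and 11.5, 11.7 and 11.5 CPM after 3 weekly exposures, against 17.1, 16.8 and 18.5 CPM in sham lungs. The 3-exposure libraries were nearly identical and below all sham libraries (log2 fold change -0.59 ± 0.25, unadjusted p = 0.0412, adjusted p = 0.612, edgeR). Ndufb4, of the complex I membrane arm, had 6.11, 7.09 and 12.1 CPM after 3 weekly exposures, against 14.1, 9.99 and 19.9 CPM in sham lungs (-0.79 ± 0.37, adjusted p = 0.650, edgeR). Atp5j2, subunit f of the ATP synthase, had 6.81, 4.50 and 4.26 CPM after 3 weekly exposures, against 13.3, 9.42 and 7.08 CPM in sham lungs (-0.94 ± 0.52, adjusted p = 0.721, edgeR). Cox5b (-0.74 ± 0.42, adjusted p = 0.732, edgeR) and Cox5a (-0.62 ± 0.37, adjusted p = 0.746, edgeR) also lay wholly below sham, as did Atp5k, with 1.75, 2.59 and 1.47 CPM after 3 weekly exposures, against 6.89, 3.20 and 2.76 CPM in sham lungs. The same 3 genes were low in single-exposure libraries 2 and 3, where Atp5k had 0.689 and 1.44 CPM, but the comparisons share the sham libraries. Since those libraries enter both contrasts, the resemblance is not independent evidence.

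**Figure D5:**
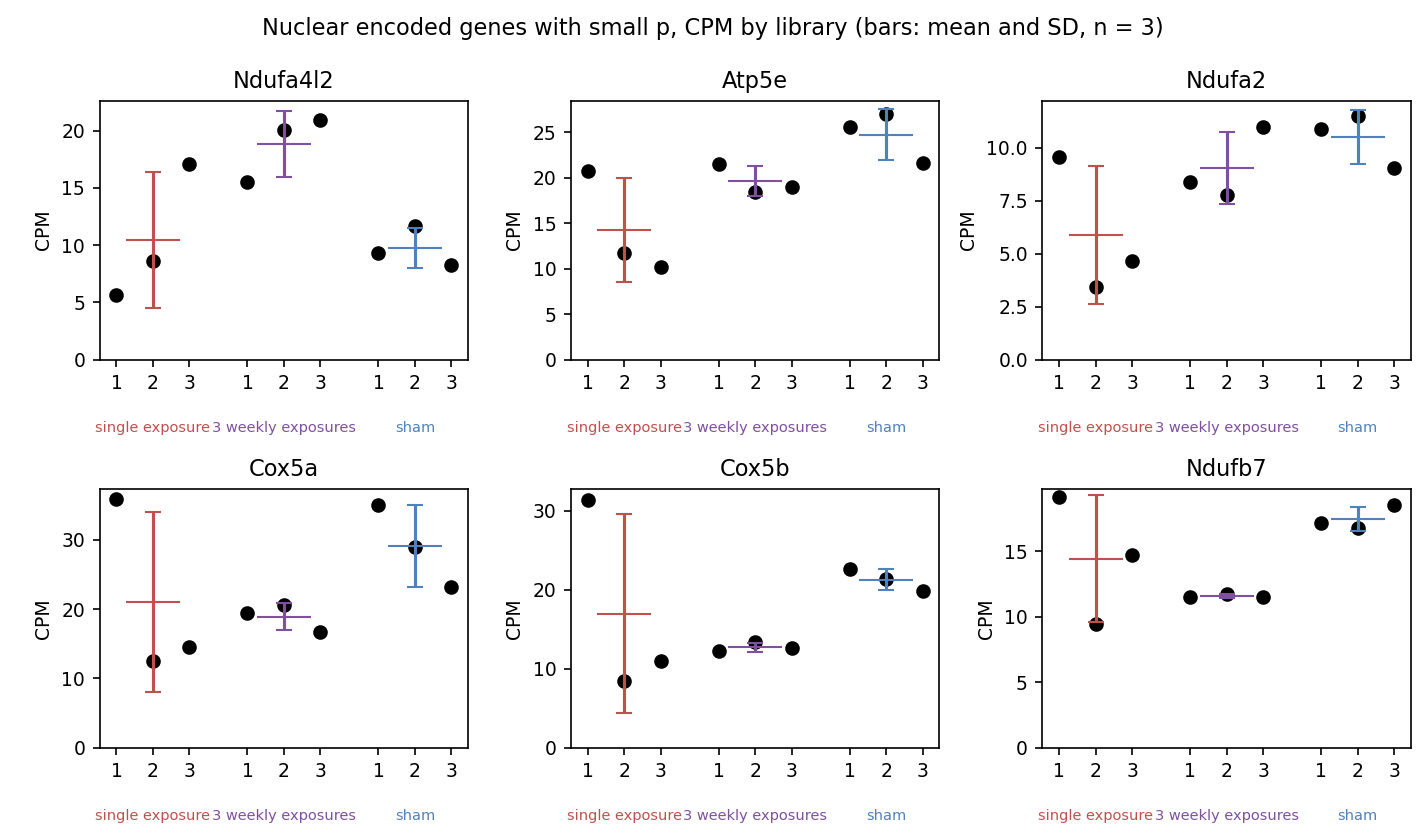
CPM (y axes, starting at 0) of 6 nuclear encoded genes in each library, with the mean and SD of each group (coloured bars, n = 3). Ndufa4l2 is above all sham values after 3 weekly exposures (15.5 to 21 CPM), and Cox5b and Ndufb7 are below them (12.2 to 13.4 and 11.5 to 11.7 CPM).

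Library 1 after 3 weekly exposures carried most of the mitochondrial signal of its group. Without it, 12 of 13 mitochondrial and 52 of 89 nuclear genes had a log2 fold change below 0 against sham (48.9% of all genes), with medians of -0.95 and -0.09. At an unadjusted p under 0.05 stood 1 nuclear gene, which was higher (3.68% of all genes), and no member was lower (4.04% of all genes). In that library, with a mitochondrial share of 5.82%, heart markers summed to 147 CPM, below every sham library. Ciliated cell markers summed to 789 CPM in it and to 376 and 499 CPM in the other libraries of its group, with 1006 CPM in library 1 of the single-exposure group, against 571, 637 and 510 CPM in sham lungs. The part of ciliated cells in the mitochondrial values was not tested.

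Setting 3 weekly exposures against a single exposure showed the excess of single-exposure library 1 with opposite sign. No member was called (0 of 102, with 0% called over all genes); 1 nuclear gene was higher and 2 were lower at an unadjusted p under 0.05, against 2.79% and 3.74% of all genes. DESeq2 and limma called 0 members too, with 7 each at that unadjusted p (5.62% and 5.54% of all genes). The log2 fold change was below 0 in 76 of 89 nuclear genes and 11 of 13 mitochondrial genes (51.7% of all genes), with medians of -0.39 and -0.34, against -0.01 over all genes. Cox6a2 (-4.07 ± 1.39, unadjusted p = 0.0162, adjusted p = 0.753, edgeR) and Cox7a1 (-3.95 ± 1.46, unadjusted p = 0.0235, adjusted p = 0.753, edgeR) had the smallest p. Uqcrb, the ubiquinone-binding subunit of complex III, and Cox7b followed, at -0.96 ± 0.43 and -0.96 ± 0.45. Without single-exposure library 1 these 4 log2 fold changes were -0.45 ± 0.67 for Cox6a2, -0.44 ± 0.98 for Cox7a1, -0.13 ± 0.18 for Uqcrb and -0.05 ± 0.17 for Cox7b. On the higher side stood Ndufa4l2 (0.85 ± 0.37), Cox4i2 (0.89 ± 0.52), Ndufa2 (0.61) and Atp5e (0.46), and Cox4i2 alone did not overlap between the groups (4.1% of all genes). Without single-exposure library 1, Atp5e stood at 0.84 ± 0.20, Ndufa2 at 1.16 ± 0.31, Ndufa4l2 at 0.55 ± 0.31 and Cox4i2 at 0.42 ± 0.29, and all 13 mitochondrial genes and 59 of 89 nuclear genes were instead above 0 (51.9% of all genes), with medians of 0.88 and 0.15. At an unadjusted p under 0.05, 3 mitochondrial and 11 nuclear genes were then higher (3.93% of all genes) and none was lower (3.42% of all genes). The 3 were mt-Co1, mt-Atp6 and mt-Atp8. The last pair, also counted among the 13, had failed estimates, with 0 fragments in single-exposure libraries 2 and 3.

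Genes of the same pathway outside these symbols were counted from lists chosen with the results known. Of 13 electron carriers and further subunits, 8 had a log2 fold change above 0 after a single exposure and 4 after 3 weekly exposures, against sham, with medians of 0.32 and -0.12; without single-exposure library 1, 3 of 13 were above 0 after a single exposure, with a median of -0.26. Higd1a, a small inner-membrane protein that associates with complex IV, had the smallest p of this list, with 10.3, 8.61 and 7.82 CPM after a single exposure and 10.3, 14.6 and 13.4 CPM after 3 weekly exposures, against 19.9, 16.2 and 19.3 CPM in sham lungs. All 6 irradiated libraries were below all sham libraries (single exposure -1.05 ± 0.22, adjusted p = 0.211; 3 weekly exposures -0.53 ± 0.21, adjusted p = 0.601, edgeR), and library 1 of the single-exposure group was not an exception here. Cycs, cytochrome c, had 280, 71.6 and 48.5 CPM after a single exposure, against 68.7, 53.0 and 51.0 CPM in sham lungs (0.061 ± 0.24 without library 1). The 13 tested genes of the tricarboxylic acid cycle, which feeds electrons to complexes I and II, all had a log2 fold change above 0 after a single exposure, with a median of 0.54, where 53.8% of all genes did, and 4 of 13 did after 3 weekly exposures. Without single-exposure library 1, 9 of the 13 were below 0 after a single exposure (50% of all genes), with a median of -0.22. Citrate synthase, Cs, had 366, 142 and 149 CPM after a single exposure and 127, 128 and 178 CPM after 3 weekly exposures, against 123, 121 and 113 CPM in sham lungs, so that all 3 single-exposure libraries were above all sham libraries (0.29 ± 0.17 without library 1).

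Factors that copy, transcribe and process mitochondrial DNA had medians near 0 with all libraries. Of 18 tested, 8 had a log2 fold change above 0 after a single exposure and 6 after 3 weekly exposures, at -0.02 and -0.05, and without single-exposure library 1 it was 6 of 18 after a single exposure, at -0.26. Ssbp1, the mitochondrial single-strand DNA binding protein, had 18.8, 18.9 and 12.4 CPM after a single exposure and 18.1, 13.5 and 14.4 CPM after 3 weekly exposures, against 24.2, 26.6 and 23.8 CPM in sham lungs (-0.57 ± 0.21, adjusted p = 0.368, and -0.70 ± 0.21, adjusted p = 0.478, edgeR). Polg, the mitochondrial DNA polymerase, had 50.4, 55.9 and 65.4 CPM after a single exposure and 88.3, 79.3 and 74.7 CPM after 3 weekly exposures, against 75.1, 73.1 and 83.4 CPM in sham lungs. Tfam, the transcription factor that also packages mitochondrial DNA, lay between 15.2 and 25.9 CPM in all 9 libraries. Ppargc1a, which encodes PGC-1α, had 77.7, 12.9 and 16.0 CPM after a single exposure and 15.7, 11.6 and 16.5 CPM after 3 weekly exposures, against 20.8, 23.2 and 14.6 CPM in sham lungs, highest in the heart-rich library. The 76 genes of the mitochondrial ribosome had medians of 0.05 and -0.05 against sham, with 46 and 32 above 0; without single-exposure library 1, 21 were above 0 after a single exposure, with a median of -0.20.

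Within the nuclear genes, transcript length went weakly with the fold changes against sham. Across 89 genes, which are not independent, the longest annotated transcript and the log2 fold change against sham had a Spearman correlation of 0.281 after a single exposure and 0.294 after 3 weekly exposures, with the sham libraries shared by both. The 47 genes under 1000 nucleotides had median log2 fold changes of 0.10 and -0.23, against 0.39 and -0.07 for the 42 longer genes. Without single-exposure library 1 the correlation after a single exposure was 0.485, with medians of -0.47 for the shorter and -0.15 for the longer genes. For 3 weekly exposures over a single exposure, with all libraries, the correlation was -0.174. Length was not examined over all genes.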

How the data were processed

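Total RNA of 9 lungs or lung samples was depleted of ribosomal RNA and sequenced as stranded libraries for 150 cycles, per the labels' protocols. The tools named are cutadapt 1.9.3 and HISAT2 2.0.4, with the build mm10, per the submitters' processing notes. Which program gave the estimates, and with which gene models, is not given in the sources used here. Their deposited table holds the authors' FPKM and counts per library, per the file headers. The deposited estimated counts were multiples of 1 step per library (0.854 to 1.19); divided by it, 92.0 to 93.3% of values above 0 lay within 0.1 of a whole number, and all were rounded. Counts were filtered with filterByExpr and fitted in 1 edgeR 4.0.16 quasi-likelihood model (R 4.3.3, TMM, a mean per group, no replicate block, Benjamini-Hochberg adjustment over 14074 genes); 102 of 103 members were tested (Ndufaf2 was not). The fit was tested on simulated data, but no outcome of that is given here. DESeq2 1.42.0 and limma 3.58.1 on log2(FPKM + 1) were alternatives. SE is the log2 fold change divided by the root of F. The common biological coefficient of variation was 0.316, with 6 residual degrees of freedom.

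Members and gene lists were chosen with earlier results of these data known. Named nuclear genes are, per comparison and direction, the 4 with the smallest p, the most abundant subunit of each complex, the paired forms and the Sdh subunits; others were singled out after their values were seen. Of the members, 33 shared a deposited locus with another gene, so that their split of fragments is uncertain. Coordinates are those of GENCODE M21 on GRCm38, counted from 1. Protein sequences were not used here.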

Additional observations from a re-analysis of the deposited data

How the results depend on the processing

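No member was called under any alternative run: DESeq2 and its size factors, library totals, TMM without the mitochondrial genes, no filter, limma with a pseudocount of 1 or 0.1, a mean of at least 5 FPKM, the 6 libraries of each comparison alone, deposited counts without the step, and each library left out. Over all genes, edgeR called 0 in each comparison, with 1693 for a single exposure, 1112 for 3 weekly exposures and 920 between the exposures at an unadjusted p under 0.05; DESeq2 called 156, 73 and 4, limma 5, 0 and 1, and edgeR on 6 libraries 0, 9 and 0. Leaving out each library in turn gave medians for a single exposure over sham of -0.87 to 0.65 (mitochondrial) and -0.30 to 0.47 (nuclear), for 3 weekly exposures over sham of -0.95 to 0.38 (mitochondrial), and for 3 weekly over a single exposure of -0.57 to 0.15 (nuclear). The lowest of the first pair and the highest of the last came without single-exposure library 1, and -0.95 without library 1 after 3 weekly exposures. Without single-exposure library 2 or 3, 17 or 12 nuclear genes were higher at an unadjusted p under 0.05 (8.5% or 8.84% of all genes), against 4 with all libraries (6.6%). Leaving out sham library 1, single-exposure library 1 and 3-exposure library 3 together, chosen after seeing the data, gave -0.84 and -0.24 for a single exposure and 1.28 and 0.088 for 3 weekly over a single exposure (mitochondrial, then nuclear). Signs turned for Cox6a2 (-0.59 without single-exposure library 1, -0.40 without all 3), Cox7a1 (-1.39 without library 1), Atp5g1 (-0.18 and -0.10) and Atp5b (-0.033 without library 1), all for a single exposure over sham; leaving out each library in turn gave highest values of 3.59, 2.84, 2.08 and 1.29 for these genes.

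The labels number the libraries within each group. Same-numbered libraries of different groups had correlations of -0.079 to 0.304 between their deviations from the group means, with 4 of 9 pairs over 0.1. Pairs with different numbers had correlations of -0.384 to 0.242. These overlapping ranges cannot decide whether the numbers pair the samples, and the main fit took no pairing. With a replicate block, 0 members were called, and medians over mitochondrial and nuclear genes were -0.25 and 0.18 for a single exposure, -0.52 and -0.11 for 3 weekly exposures, and -0.29 and -0.30 between the exposures.

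With 3 libraries a group and 1 library apart from its group, small differences were not detectable. Depth is ample for most members, but Cox8b, Cox7a1 and Atp5k had few fragments in several libraries, and floors and intervals would cover counting error only.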
